A study of Mus musculus with 6 samples.

Results

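The cytosolic ribosomal protein genes encode the proteins that, with the ribosomal RNAs, build the large and the small ribosomal subunit. Members were all genes whose symbol has the form Rpl or Rps with a number (or is Rpsa, Rplp0, Rplp1 or Rplp2), without copies marked -ps, and whose mean over the 6 libraries was at least 100 normalized counts. A normalized count is the number of reads of a gene divided by the size factor of its library. Of 54532 gene rows, 90 fitted the name and 80 reached the minimum, 47 of the large and 33 of the small subunit. The rule itself uses no difference between the groups, but it was set with earlier results of these data known. The 10 genes below the minimum were Rps10, Rps3a3, Rpl6l, Rpl36al, Rpl24, Rpl32l, Rpl3l, Rpl39l, Rpl10l and Rps12l1. Rps10 lay just outside with a mean of 99.6, and Rps3a2 just inside with 119.

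RNA was sequenced in bulk from neurospheres, floating cultures of dividing neural progenitor cells, from the hippocampus of male C57BL/6 mice at postnatal day 0. All 6 libraries carry hGFAPCre, a Cre recombinase under the human GFAP promoter. The 3 CTRL libraries have an intact Fgf13 allele on their single X chromosome (Fgf13+/y), and the 3 FGF13cko libraries a floxed one (Fgf13 flox/y); controls were littermates. The cells of 1 mouse were spread over 2 wells with FGF-2 and EGF at 20 ng/ml each and collected on day 7. Since Cre is driven by a GFAP promoter, deletion is limited to cells in which that promoter is or was active. The labels do not say which exons are floxed or whether each library is a separate animal, so the p-values measure the spread between these libraries, which may be technical.

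A ribosome holds 1 copy of nearly every ribosomal protein, and cells make the proteins of both subunits in step. Most of these mRNAs start with a 5' terminal oligopyrimidine (TOP) tract, a C followed by an unbroken stretch of C and U, through which the kinase mTOR and the RNA-binding protein Larp1 control how strongly they are translated. Neural stem and progenitor cells that divide have a high demand for ribosomes.

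The starts of the genes below are shown because they span long to short pyrimidine runs near the start and include paralogs that the results turn on. Each line gives 15 bases before to 15 bases after the RefSeq transcription start on the coding strand (GRCm38.p6), and capitals mark the longest run of C and T found from 10 bases before to 20 after the start, cut at the edges of that span. The marked runs of Rpl5, Rps27l, Rpl22 and Rpl7l1 lie wholly before the annotated start, so they are not at the place of a TOP tract.
Rpl28, chr7:4792950-4792979, plus strand: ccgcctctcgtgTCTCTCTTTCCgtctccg
Rps6, chr4:86857353-86857382, minus strand: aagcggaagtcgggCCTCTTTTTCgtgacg
Rpl38, chr11:114668565-114668594, plus strand: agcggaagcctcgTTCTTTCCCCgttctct
Rpl5, chr5:107900513-107900542, plus strand: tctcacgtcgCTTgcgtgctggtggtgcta
Rps27, chr3:90213634-90213663, minus strand: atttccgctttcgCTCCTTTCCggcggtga
Rps27l, chr9:66946071-66946100, plus strand: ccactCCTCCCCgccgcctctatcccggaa
Rpl22, chr4:152325711-152325740, plus strand: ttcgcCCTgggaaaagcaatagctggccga
Rpl22l1, chr3:28805493-28805522, plus strand: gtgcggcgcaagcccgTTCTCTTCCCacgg
Rpl7l1, chr17:46782642-46782671, minus strand: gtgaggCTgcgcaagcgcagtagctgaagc
A start window was at hand for 58 of the 80 members. A run of at least 8 pyrimidines lay near the start in 21 of them (36.2%), against 11.3% of the 11607 tested genes with a window. Such a run could also lie wholly before the start, as in Rpl19, or begin after it, as in Rps12. The first transcribed base was C in 32.8% of members and 15.5% of all windows. The sequence CCGGAAG, the core recognised by ETS factors, was found on either strand within 300 bases (250 before to 50 after the start) in 39.7% of members and 16.9% of all windows. TATAAA was found in 10.3% and 6.99%, and AAGATGGC, the core of the YY1 motif, in 8.62% and 4.36%. These are matches of letters at annotated starts, and the starts used in these cells were not measured.

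The libraries held 22191718 to 24531400 gene-assigned reads. Fgf13, the targeted gene, read 480, 651 and 276 normalized counts in CTRL 1, 2 and 3 and 201, 239 and 332 in FGF13cko 1, 2 and 3, so in replicate 3 the library labelled FGF13cko was the higher one, and group names here are the labels' (log2 difference -0.81, limma adjusted p = 0.134). The replicate 3 libraries stood apart from the others in both groups. Summed markers fixed for other cell types differed between the groups. Microglial markers summed to 180 to 196 normalized counts in CTRL and 362 to 550 in FGF13cko, mural and fibroblast markers to 271 to 409 and 843 to 2451, endothelial markers to 46.5 to 92.6 and 171 to 292, and young neuron markers to 18024 to 23490 and 28334 to 38143. In FGF13cko 1, 2 and 3, Rgs5 alone held 659, 798 and 2267 of the mural and fibroblast sum. Of the 5 tested markers of that list, 1 had a negative estimate, Col1a1 (-1.11). It read 91.5, 91.6 and 34.4 in CTRL and 34.4, 38.6 and 20.3 in FGF13cko. The 8 neural progenitor markers were all present, and summed to 108321 to 122276 in CTRL and 163729 to 176410 in FGF13cko. That list went both ways. Vim, Nes and Fabp7, which hold most of the sum, had log2 differences of 0.81, 1.29 and 0.56 that did not pass (adjusted p = 0.115, 0.149 and 0.291 by limma), while Sox2, Pax6 and Hes5 fell (-0.79, -0.98 and -2.49), and the median over the 8 genes was -0.30. Astrocyte sums (44080 to 72214 and 45733 to 71357) overlapped. Oligodendrocyte lineage sums (49254 to 73570 and 58689 to 75056), held mostly by Olig1 and Olig2, overlapped too, but 6 of these 8 markers had negative estimates with a median of -0.71, and Sox10 (-1.84) and Gpr17 (-2.46) fell. No marker of these 7 lists was at 0 in all libraries. The part of these differences in the results below was not tested, and in bulk RNA fewer cells of a type and less RNA per cell cannot be told apart.

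Ribosomal protein mRNAs of both subunits were lower on average in FGF13cko neurospheres, by a similar amount, but 1 gene alone, Rpl3, fell past the threshold over all genes. The members took 4.58%, 4.69% and 8.12% of all reads in CTRL 1, 2 and 3 and 3.97%, 3.51% and 4.48% in FGF13cko 1, 2 and 3 (5.80% ± 2.01 and 3.98% ± 0.485, SD, n = 3 each). Each FGF13cko library was below every CTRL library in this share, and CTRL 3 was far above the rest. As a share of reads outside mitochondrial genes the groups overlapped, with 4.66% in FGF13cko 3 and 4.65% in CTRL 1. The small subunit share of all reads overlapped too, with 1.97% in FGF13cko 3 and 1.93% in CTRL 1. The log2 difference (FGF13cko minus CTRL, on log2(normalized count + 1)) was negative in 77 of the 80 members, against 48.0% of the 16852 genes tested. Its median was -0.49 over the members and 0.02 over all genes tested, and the members ranged from -0.79 to 0.46. With limma and Benjamini-Hochberg adjustment over all genes tested at 0.05, 1 member was lower and none was higher, whereas 7.08% of all tested genes were lower and 7.55% higher. At an unadjusted p under 0.05 there were 21 members, a smaller share than the 31.9% of all tested genes. In 40 members every FGF13cko library was below every CTRL library, which held for 18.7% of all tested genes, and in 1, Rps4l, every FGF13cko library was above (20.6% of all).

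**Figure D1:**
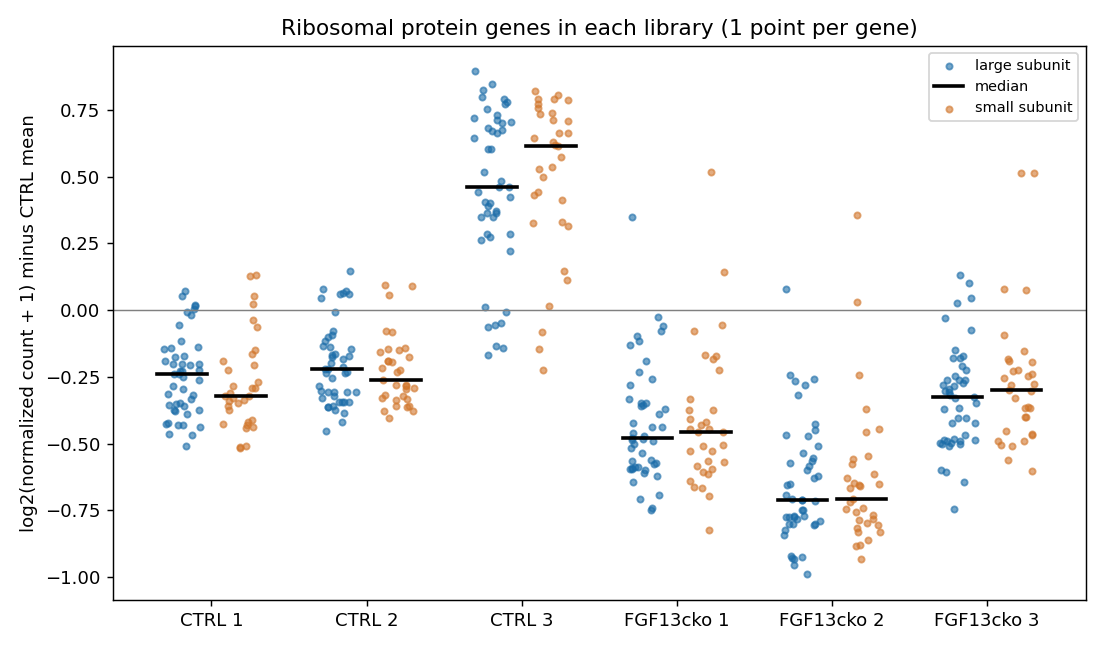
Level of each ribosomal protein gene in each library, as log2(normalized count + 1) minus the gene's CTRL mean (vertical axis), with 1 point per gene and a bar at the median of each subunit. The CTRL 3 points lie mostly above 0 and the FGF13cko 2 points lowest, and the medians of the large and small subunit follow each other in all 6 libraries.

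The size of the difference depended on the replicate number. Set number by number, the median over members was -0.21 for replicate 1, -0.47 for replicate 2 and -0.82 for replicate 3, and 66 members were lower in all 3 comparisons (29.8% of all tested genes were). With the replicate number as a block in the fit, 36 members were lower and 1 higher, against 13.9% and 16.2% of all tested genes (30.0% in either direction). Without both replicate 3 libraries, 54 members were lower and 2 higher (18.4% and 18.9% of all), although the median difference shrank from -0.49 to -0.34. Without CTRL 3 alone, the median was -0.25 and 10 members were lower and none higher (12.9% and 13.4% of all); leaving out any other single library left none past the threshold, Rpl3 included. DESeq2 on the recovered reads called 18 members lower and 1 higher (11.7% and 11.9% of all), and edgeR 2 lower and none higher (7.86% and 7.06%). By the authors' deposited table, lower values were called in 13 members at an adjusted p under 0.05, 10 of the large and 3 of the small subunit, against 7.91% of all genes with an adjusted p there.

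The subunits lay close together. The median log2 difference was -0.49 in each, with a range of -0.79 to 0.19 over the 47 large subunit genes and -0.73 to 0.46 over the 33 small subunit genes. Large subunit genes took 2.65%, 2.71% and 4.52% of the reads in CTRL 1, 2 and 3 and 2.26%, 2.01% and 2.51% in FGF13cko 1, 2 and 3. Small subunit genes took 1.93%, 1.98% and 3.59% in CTRL and 1.71%, 1.496% and 1.97% in FGF13cko. The ratio of the large to the small sum was 1.37, 1.37 and 1.26 in CTRL and 1.32, 1.34 and 1.28 in FGF13cko, or 1.33 ± 0.0647 and 1.31 ± 0.0337 (SD, n = 3). The groups overlapped, and the difference of -0.0193 was smaller than the spread within either group. The replicate 3 library had the lowest ratio of its group in both. Groups did not overlap, with FGF13cko lower, in 26 of the 47 large and 14 of the 33 small subunit genes (18.7% of all tested genes). With the replicate block, 24 large and 12 small subunit genes were lower (13.9% of all).

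**Figure D2:**
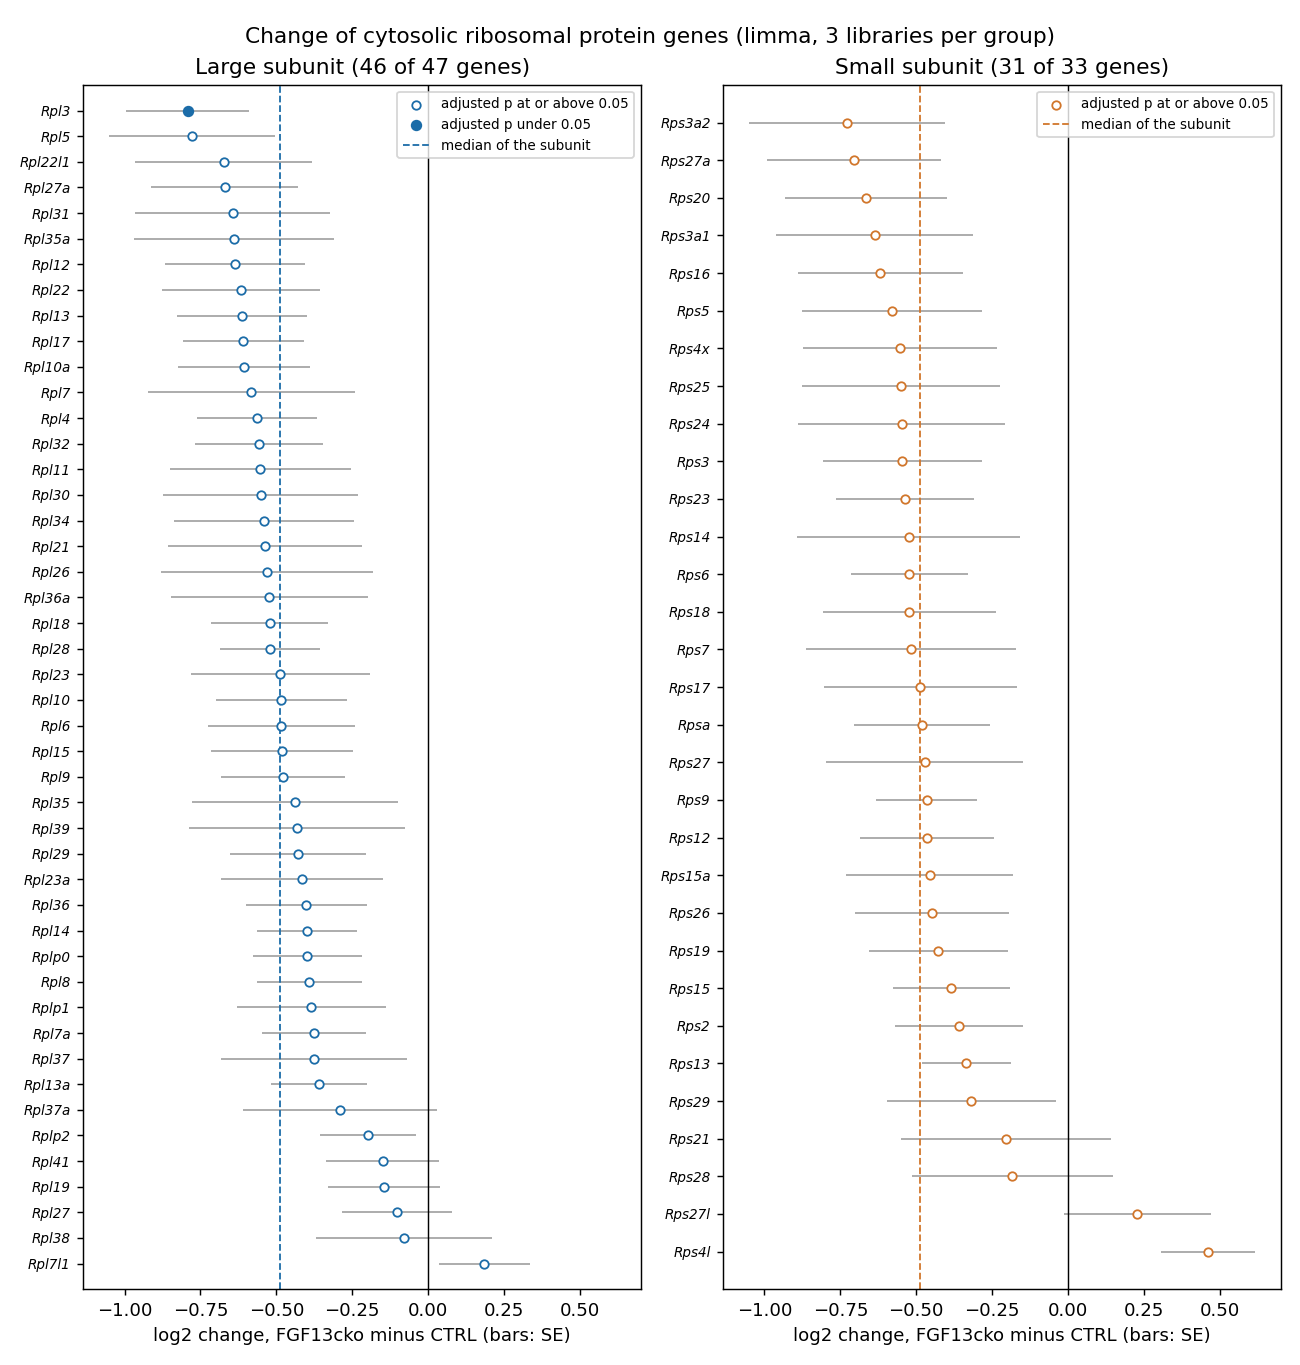
Log2 difference (FGF13cko minus CTRL, horizontal axis, bars are standard errors) of the large and small subunit genes, ordered by size, without those not reported here; a filled point marks an adjusted p under 0.05 and the dashed line the median of -0.49 over the whole subunit. Rpl3 is the only filled point, and Rpl7l1, Rps27l and Rps4l are the only genes right of 0.

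Among the large subunit proteins of the catalytic core, Rpl3 (ENSMUSG00000060036, chromosome 15, 80077791 to 80091868, minus strand, GRCm38), whose protein reaches towards the peptidyl transferase centre, differed most. It read 38714, 37881 and 50227 normalized counts in CTRL 1, 2 and 3 and 25662, 22122 and 25010 in FGF13cko 1, 2 and 3. The groups were well apart, and the gene was lower in FGF13cko in each replicate number. Its level fell by 0.79 on the log2 scale (SE 0.20, adjusted p = 0.038 by limma; 0.0097 with the replicate block), a ratio of 0.578. Leaving out any library other than CTRL 3 raised the adjusted p to between 0.0737 and 0.164, with the log2 difference between -0.73 and -0.86. Rpl4, whose protein lines the exit tunnel for the new peptide, read 25819, 25893 and 34404 in CTRL and 20415, 17393 and 20066 in FGF13cko. Every FGF13cko value was below every CTRL value, at a log2 difference of -0.56 (SE 0.20, adjusted p = 0.092; 0.030 with the block). Rpl10, which joins the large subunit late and is needed for it to pair with the small subunit, read 14113, 14301 and 21268 in CTRL and 12135, 9958 and 12988 in FGF13cko. Its groups did not overlap either, and its difference of -0.48 did not pass (adjusted p = 0.167; 0.040 with the block).

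Rpl5 and Rpl11 form a particle with the 5S ribosomal RNA, which can also bind Mdm2, the inhibitor of p53. Rpl5 read 17672, 17560 and 32947 in CTRL and 12984, 10929 and 14264 in FGF13cko, with no overlap and a log2 difference of -0.78 (SE 0.27, adjusted p = 0.094; 0.011 with the block). Rpl11 read 16353, 16952 and 33127 in CTRL and 13882, 12110 and 17317 in FGF13cko. Here FGF13cko 3 lay above CTRL 1 and 2, and the difference of -0.55 did not pass (adjusted p = 0.242; 0.039 with the block). In both genes CTRL 3 was far above the other CTRL libraries.

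The stalk of the large subunit, which recruits elongation factors, is built on Rplp0 and carries Rplp1 and Rplp2. Rplp0 read 34931, 34315 and 34334 in CTRL and 28439, 24263 and 26101 in FGF13cko. The 3 CTRL values lay close together, without the high CTRL 3 value of most members, and no FGF13cko value reached them (log2 difference -0.40, adjusted p = 0.169 by limma; 0.0068 by DESeq2). Rplp1 read 19224, 18886 and 31516 in CTRL and 17210, 15022 and 19901 in FGF13cko, and Rplp2 read 9847, 10031 and 8655 in CTRL and 9334, 8027 and 7564 in FGF13cko. Both overlapped, with log2 differences of -0.38 (adjusted p = 0.320) and -0.20 (adjusted p = 0.423). The 3 stalk genes thus had negative estimates and none passed.

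Rpl31, which lies at the exit of the peptide tunnel, had a log2 difference of -0.64 (adjusted p = 0.210; 0.023 with the block), and Rpl36a one of -0.52 (adjusted p = 0.302). Rpl28 and Rpl17 also came near the threshold and are named after their values were seen. Their adjusted p values by limma were 0.073 and 0.078, at log2 differences of -0.52 and -0.61. Rpl28 read 19441, 20604 and 19069 in CTRL and 15486, 13255 and 12604 in FGF13cko, so that CTRL 3 was the lowest CTRL library and the groups were still apart. By edgeR, Rpl3 and Rpl28 were lower (adjusted p = 0.029 and 0.0497).

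In the small subunit no gene passed in the fit over all 6 libraries. Rps27a, made as a fusion with ubiquitin, had the most negative estimate of the protein-coding genes. It read 10291, 10260 and 20497 in CTRL and 7977, 6783 and 9211 in FGF13cko, with no overlap and a log2 difference of -0.71 (SE 0.29, adjusted p = 0.135 by limma; 0.014 with the block). Rps20, a protein of the head of the small subunit, read 9093, 8907 and 17017 in CTRL and 7138, 6125 and 7921 in FGF13cko, a difference of -0.66 (adjusted p = 0.131; 0.016 with the block). Rps6, the classical substrate of S6 kinase downstream of mTOR, read 14332, 14807 and 20560 in CTRL and 11911, 10443 and 11818 in FGF13cko. Its groups did not overlap, at a log2 difference of -0.52 (SE 0.19, adjusted p = 0.106; 0.032 with the block).

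Rps3, at the entry of the mRNA channel, read 25487, 25624 and 44278 in CTRL and 21322, 18314 and 23796 in FGF13cko, a log2 difference of -0.55 (adjusted p = 0.193; 0.046 with the block). Rpsa, also known as a precursor of the laminin receptor, read 32229, 31606 and 44807 in CTRL and 26927, 21895 and 28478 in FGF13cko, a difference of -0.48 (adjusted p = 0.180; 0.061 with the block). Both had groups that did not overlap. Rps4x, encoded on the X chromosome, read 19837, 19698 and 41306 in CTRL and 16865, 14216 and 21300 in FGF13cko, with FGF13cko 3 above CTRL 1 and 2 (log2 difference -0.55, adjusted p = 0.271; 0.044 with the block). Rps19, the gene most often mutated in Diamond-Blackfan anaemia in humans, read 16055, 15816 and 24897 in CTRL and 13717, 11967 and 15831 in FGF13cko. FGF13cko 3 was just above CTRL 2, and the difference of -0.43 did not pass (adjusted p = 0.238). Rps14, deleted in the human 5q- syndrome, showed the widest replicate 3 effect of the small subunit and is described below with that effect. Its log2 difference was -0.52 (adjusted p = 0.363).

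Negative estimates near 0 included those of Rpl38 (-0.08), Rpl27 (-0.10), Rpl19 (-0.15), Rpl41 (-0.15) and Rps28 (-0.18). Rpl38, which in mice is needed for the translation of a set of Hox mRNAs, read 2805, 3299 and 6296 in CTRL and 3672, 3227 and 4158 in FGF13cko. In replicate 1 it was higher in FGF13cko, in replicate 3 it was lower, and the groups overlapped (adjusted p = 0.874). Rpl27 read 15474, 16168 and 19894 in CTRL and 15976, 14284 and 17598 in FGF13cko (adjusted p = 0.730), and Rps28 read 5140, 6011 and 12668 in CTRL and 6513, 5327 and 7715 in FGF13cko (adjusted p = 0.739). Without CTRL 3 the log2 difference was 0.27 for Rpl38, 0.0071 for Rpl27 and 0.21 for Rps28, so the sign of these genes rests on that library.

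The 3 members that were not lower are all copies or paralogs. The 75 members that are annotated as protein-coding and not named as a paralog all had a negative estimate, from -0.79 to -0.08. The genes of that kind below the minimum, Rps10 and Rpl24, went the other way. Their log2 fold changes in the authors' deposited table were 0.39 and 0.21 (adjusted p = 0.468 and 0.825 by the authors' Wald test). Rps4l (ENSMUSG00000063171, chromosome 6, 148354656 to 148355598, plus strand), annotated as a transcribed processed pseudogene, read 324, 267 and 298 in CTRL and 423, 378 and 421 in FGF13cko. It was higher in FGF13cko in all 3 replicate numbers without overlap, at a log2 difference of 0.46 (SE 0.16, adjusted p = 0.084 by limma; 0.047 with the block and 0.042 by DESeq2). Whether reads of Rps4x were counted there was not tested. The estimate of Rps4x had the opposite sign, and CTRL 3 exceeded the mean of CTRL 1 and 2 by 0.016 on the log2 scale for Rps4l and by 1.06 for Rps4x. Rps3a2, an annotated processed pseudogene, read 98.7, 124 and 233 in CTRL and 79.7, 81.0 and 95.7 in FGF13cko (log2 difference -0.73, adjusted p = 0.163), and reads of Rps3a1 may be counted there. The rows of -ps copies held 0.282% to 0.317% of the reads of the members in each library.

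Within paralog pairs, the share of Rps27l in its pair with Rps27 was higher in every FGF13cko library than in any CTRL library. Rps27l (ENSMUSG00000036781, chromosome 9, 66946086 to 66949516, plus strand), known as a gene induced by p53, read 3696, 4021 and 6478 in CTRL and 5065, 4684 and 6535 in FGF13cko. Its difference was positive in all 3 replicate numbers (0.45, 0.22 and 0.01) and 0.23 in the fit (SE 0.24, adjusted p = 0.548); without both replicate 3 libraries it was 0.34 (adjusted p = 0.013). Rps27 read 7367, 7910 and 17058 in CTRL and 7010, 6059 and 8780 in FGF13cko, a log2 difference of -0.47 (adjusted p = 0.354). Per transcript length, Rps27l made up 25.8%, 26.0% and 20.8% of the pair in CTRL 1, 2 and 3 and 33.3%, 34.8% and 33.98% in FGF13cko 1, 2 and 3. The means were 24.2% ± 2.94 and 34.04% ± 0.761 (SD, n = 3) with no overlap, but 3 against 3 libraries cannot give a 2-sided exact permutation p below 0.1, which is what this pair gave (0.3 after adjustment over 6 pairs).

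Rpl7l1, a paralog of Rpl7 whose human protein is found in large subunit precursors, had 13.8%, 14.4% and 5.67% of its pair in CTRL and 18.9%, 17.98% and 13.5% in FGF13cko. The groups overlapped through FGF13cko 3 (exact permutation p = 0.3, adjusted 0.6). Rpl7l1 itself read 3031, 3309 and 2662 in CTRL and 3805, 3155 and 3270 in FGF13cko (log2 difference 0.19, adjusted p = 0.429), and Rpl7 had a difference of -0.58 (adjusted p = 0.277; 0.044 with the block). Rpl22l1, which in mice rises when Rpl22 is lost, had overlapping shares, with 3.53%, 3.60% and 3.87% in CTRL and 3.63%, 3.29% and 3.64% in FGF13cko (exact permutation p = 0.6, adjusted 0.7). Both genes of that pair had similar negative estimates, -0.67 for Rpl22l1 (adjusted p = 0.157) and -0.62 for Rpl22 (adjusted p = 0.148). Rpl36al, Rpl39l and Rpl3l were at or below 0.343% of their pairs (exact permutation p = 0.5, 0.7 and 0.1). Rpl39l and Rpl3l had means of 0.665 and 2.63 normalized counts, and no more can be said of them at this depth. Rpl10l was at 0 in every library, which allows up to 3 reads, or 2.89 to 3.05 normalized counts.

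**Figure D3:**
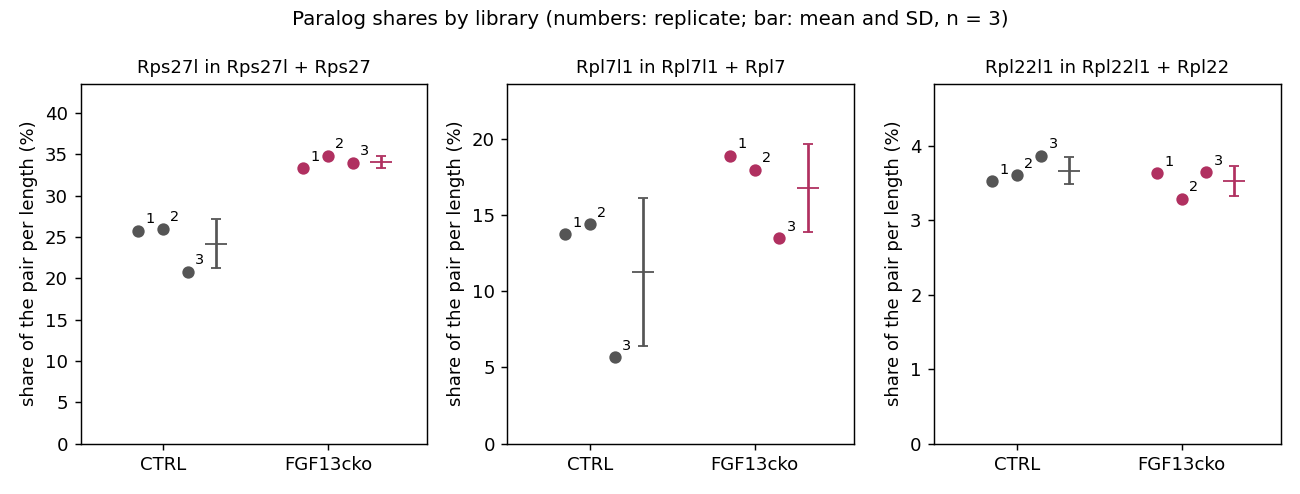
Share of the paralog in the summed level of its pair per transcript length (vertical axis, percent) in each library, with replicate numbers beside the points and the mean and SD of 3 libraries as bars. The Rps27l shares are 20.8% to 26.0% in CTRL and 33.3% to 34.8% in FGF13cko, while the shares of Rpl7l1 and Rpl22l1 overlap.

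Much of the spread of these genes lay in the replicate 3 libraries. CTRL 3 exceeded the mean of CTRL 1 and 2 by a median of 0.79 on the log2 scale, with members from -0.33 to 1.34, and FGF13cko 3 exceeded the mean of FGF13cko 1 and 2 by a median of 0.25 (-0.45 to 0.64). Of the members, 27 were at least 2-fold higher in CTRL 3, 16 of the large and 11 of the small subunit. This count, and the correlation of the excesses below, are given for members only. Relative to each gene's CTRL mean, the median log2 level in CTRL 3 was 0.52 over members and -0.04 over all tested genes. Rps14 read 21278, 21502 and 50267 in CTRL and 17992, 16139 and 26648 in FGF13cko, so replicate 3 was the highest library of each group. Rpl39, which lines the exit tunnel, read 5254, 5713 and 13892 in CTRL and 5394, 4754 and 6624 in FGF13cko, and its log2 difference of -0.43 (adjusted p = 0.440) was 0.016 without CTRL 3. Another 12 members lay less than 0.1 above, or below, CTRL 1 and 2 on the log2 scale in CTRL 3, among them Rpl7a, Rpl7l1, Rpl8, Rpl13a, Rpl14, Rpl28, Rplp0, Rplp2, Rps2, Rps4l and Rps13. Rps2, at the mRNA entry channel, read 55376, 56814 and 48205 in CTRL and 47394, 39198 and 38654 in FGF13cko, without overlap and with replicate 3 the lowest in each group (log2 difference -0.36, adjusted p = 0.277). The median difference between the groups was -0.36 in these 12 genes and -0.53 in the 27, and without replicate 3 it was -0.33 and -0.30.

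The order of the members by their replicate 3 excess was alike in the 2 groups, with a Pearson r of 0.917 and a Spearman rho of 0.891 across 80 genes, as a description. Each excess is taken within a group, so the points share no library, but genes are not independent. The excess in CTRL 3 went with a lower GC content of the transcript (r = -0.43, rho = -0.41), and that in FGF13cko 3 less so (r = -0.28, rho = -0.28). The median GC was 48.7% in the 27 genes and 53.4% in the 12. Mitochondrial genes took 1.48%, 1.46% and 4.14% of the reads in CTRL 1, 2 and 3 and 2.28%, 2.36% and 4.05% in FGF13cko 1, 2 and 3, so replicate 3 was the highest there too. The part of GC content, mitochondrial reads or culture in the replicate 3 values was not tested.

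**Figure D4:**
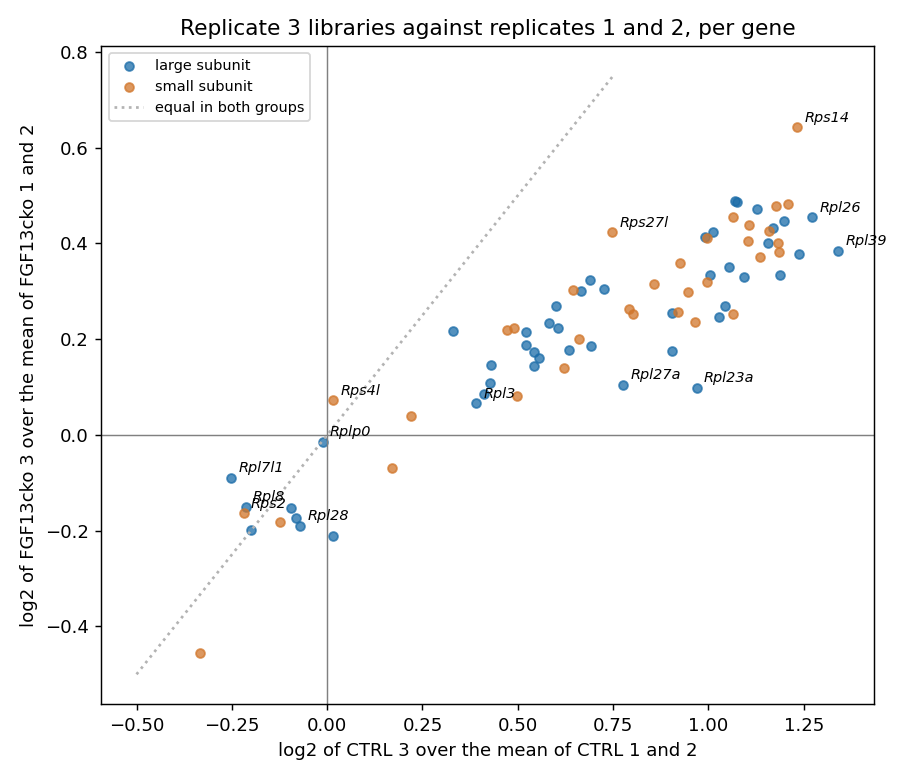
For each member, the log2 excess of CTRL 3 over the mean of CTRL 1 and 2 (horizontal axis) against that of FGF13cko 3 over the mean of FGF13cko 1 and 2 (vertical axis). The genes rise together (r 0.917 across 80 genes), and most lie below the dotted line of equal excess, with the larger excess in CTRL 3.

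By level per kilobase of transcript, the members spanned a wide range around medians of 17874 normalized counts per kb in the large and 19381 in the small subunit. The highest were Rps2 at 47702, Rps14 at 42944, Rplp1 at 40668 and Rpl31 at 39862, and 39 of 47 large and 29 of 33 small subunit genes were at 10000 or more. These levels depend on the transcript chosen for the length. Of the 10 members below 5000 per kb, Rps3a2 (150) and Rps4l (446) are pseudogenes, and Rpl22l1 (778) and Rpl7l1 (2447) are paralogs. Rps20 (2527) was divided by an annotated transcript of 3706 bases. The remaining 5, among them Rpl13a (501), Rpl23a (1031), Rpl35 (1096) and Rpl19 (3988), each overlap exons of another annotated gene. Such overlap is not particular to low members. It was found in 13 of the 47 large and 6 of the 33 small subunit genes, Rps2 and Rpl31 included. Rpl13a read 565, 607 and 592 in CTRL and 542, 424 and 417 in FGF13cko, without overlap (log2 difference -0.36, adjusted p = 0.162). Rpl24 and Rps10, below the minimum, likewise share exons on their strand with another annotated gene, Gm28037 and RPS10-NUDT3, and Rpl13a and Rpl36al with Gm45713 and Gm49383. All 4 overlapping genes were at 0 in every library. How reads in shared exons were counted is not given in the sources used here, so the levels of these ribosomal protein genes are uncertain.

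Members with and without the pyrimidine run had similar median differences between the groups. The median log2 difference was -0.47 in the 21 members with a run of at least 8 near the start. It was -0.52 in the 37 without. The range was -0.67 to -0.08 with a run and -0.78 to 0.23 without, where the paralogs Rps27l and Rpl7l1 are included. Rpl28 and Rpl38, printed above with runs of 11 and 10, had differences of -0.52 and -0.08, and Rpl5, with a run of 3, had -0.78.

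Other genes of the translation machinery were read from lists drawn up for this comparison. Their counts stand against the 7.55% of all tested genes that were higher and the 7.08% that were lower. Fau, a ubiquitin-like fusion gene that encodes Rps30, read 14867, 14621 and 20225 in CTRL and 10497, 9544 and 12078 in FGF13cko, without overlap (log2 difference -0.62, adjusted p = 0.069 by limma; 0.011 with the block). Rack1, a scaffold protein of the small subunit, read 19426, 18442 and 21904 in CTRL and 14563, 12606 and 14000 in FGF13cko, a difference of -0.54 (adjusted p = 0.067; 0.023 with the block). Of 21 elongation factors and other genes with TOP mRNAs, 19 had negative estimates with a median of -0.40. The initiation factor genes Eif4b (-0.84, adjusted p = 0.021) and Eif3f (-0.51, adjusted p = 0.040) fell and none rose. The elongation factors Eef1a1 and Eef2 had differences of -0.34 and -0.40 (adjusted p = 0.411 and 0.313), and Tpt1, another TOP mRNA, -0.44 (adjusted p = 0.417).

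Estimates for the genes that build ribosomes were mostly positive. Of 46 ribosome biogenesis genes, 4 had negative estimates, the median was 0.38, and 2 rose, Brix1 (0.63, adjusted p = 0.027 by limma) and Noc3l (0.66, adjusted p = 0.050), both known from yeast as factors of large subunit assembly; none fell. A count of 2 in 46 is below the 7.55% of all tested genes that were higher. Set number by number, the median of this list was 0.61 for replicate 1, -0.04 for replicate 2 and 0.65 for replicate 3. The nucleolar proteins Ncl, Npm1 and Fbl had differences of 0.11, -0.36 and 0.27, and none passed (adjusted p = 0.779, 0.367 and 0.521). Of 32 RNA polymerase I and III genes, Polr3b (0.79), Polr2l (1.06) and Polr1e (0.91) rose, while Maf1 (-0.54), a repressor of RNA polymerase III, and Polr1c (-0.51) fell, with a median of 0.15; both counts are near the shares over all genes (7.55% and 7.08%). Of 34 translation initiation factors, Eif2b3 rose (0.62, adjusted p = 0.036 by limma), Eif4b and Eif3f fell, and the median was 0.24. Number by number, that median was 0.22, -0.05 and 0.44 for replicates 1, 2 and 3. Of 77 mitochondrial ribosomal protein genes tested, 3 rose, Mrps6 (1.71, adjusted p = 0.008), Mrpl16 (0.52, adjusted p = 0.042) and Mrpl20 (0.69, adjusted p = 0.048), none fell, and the median was 0.12. A count of 3 in 77 is below the 7.55% of all tested genes. Polr1e and Mrpl20, and Rictor and Mdm2 named next, were added after their values were seen.

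Among 21 genes of the mTOR pathway and of TOP regulation, Sesn2, an inhibitor of mTORC1, rose (0.78, adjusted p = 0.044) and 3 fell, Eif4ebp1, Ddit4 and Rictor (-0.61, adjusted p = 0.023), a subunit of mTORC2. Eif4ebp1, whose protein represses cap-dependent translation, read 4082, 3925 and 4245 in CTRL and 1666, 1548 and 1641 in FGF13cko, a log2 difference of -1.33 (SE 0.12, adjusted p = 0.002). Ddit4, which restrains mTORC1 under stress, read 20770, 19017 and 12277 in CTRL and 5069, 6287 and 4952 in FGF13cko (-1.65, adjusted p = 0.006). Eif4ebp1 and Ddit4 were far apart between the groups in every replicate number. Mtor and Myc did not pass (0.21 and 0.39, adjusted p = 0.403 and 0.546). Of 16 tested genes of ribosome stress and the p53 axis, 4 rose, namely the p53 targets Ccng1 (0.89, adjusted p = 0.022 by limma), Phlda3 (0.76, adjusted p = 0.019) and Mdm2 (0.77, adjusted p = 0.024), and Sesn2, which is in both lists, none fell, and the median was 0.12. Over all tested genes, 7.55% were higher and 7.08% lower, the shares to set beside the counts of both lists.

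**Figure D5:**
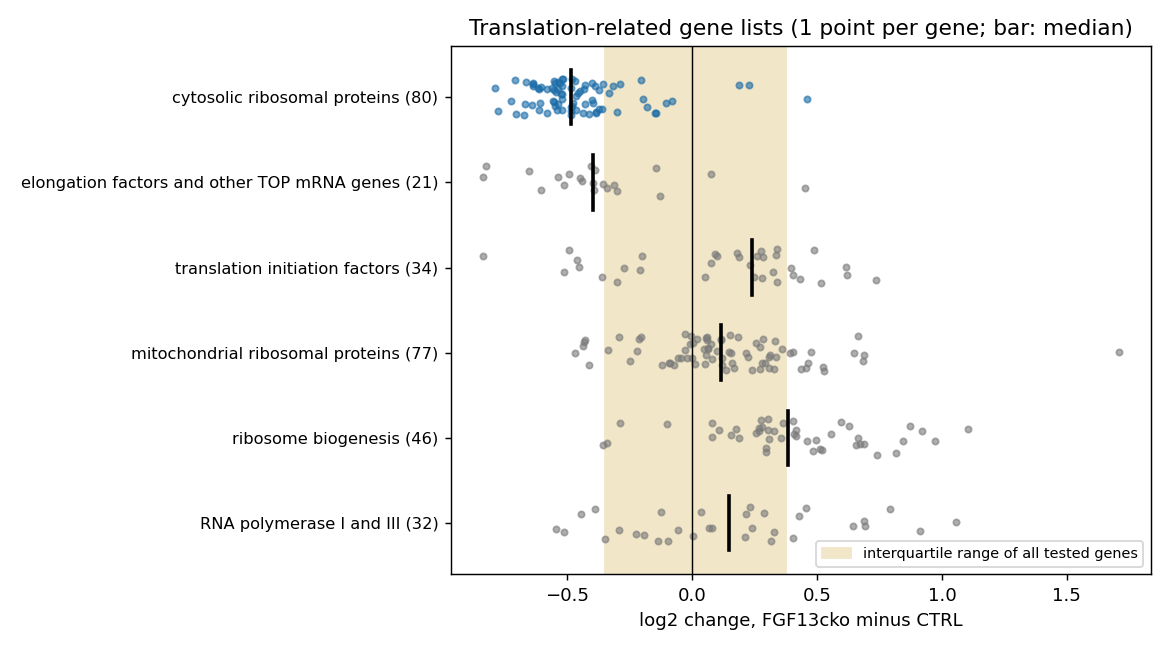
Log2 difference (FGF13cko minus CTRL, horizontal axis) of each tested gene in 6 lists, with 1 point per gene, a bar at the list's median and, shaded, the interquartile range of all tested genes, -0.35 to 0.38. The medians are -0.49 for cytosolic ribosomal proteins and -0.40 for elongation factors and other TOP mRNA genes, and 0.12 to 0.38 for the other lists.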

How the data were processed

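Bulk RNA-seq libraries were made with the NEBNext Ultra kit, which does not mark strand, per the labels' protocols, and the submitters' processing notes list STAR, DESeq2 and mm10 without versions. The authors deposited normalized counts, a signal equal to reads divided by a size factor per library, with their log2 fold change, a Wald score, p-value and adjusted p-value. Dividing by each library's step gave whole reads for 100% of values (within 0.01). The assumed unit of the test was kept: limma 3.58.1 (R 4.3.3, trend) on log2(normalized count + 1) for the 16852 genes with a mean of at least 10, with Benjamini-Hochberg adjustment over all. Fold changes on that scale understate low genes. edgeR 4.0.16 and DESeq2 1.42.0 on recovered reads, other scalings, pseudocounts and filters, and left-out libraries were alternatives. Scripts were tested on simulated data. Exact permutation tests used all 20 assignments of 3 and 3.

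Members, lists and tests were chosen with earlier results of these data known. Members named with values were those past the test, the 3 largest and 3 lowest differences and 2 highest and lowest levels per subunit, fixed roles and paralog pairs; from each other list, up to 2 that rose and 2 that fell. Some genes this rule names are counted but not reported here by name. Same-numbered libraries had residual correlations of 0.36, 0.20 and 0.54, all above 0.1, so the number was used as a block; the labels do not say what it marks, and CTRL 2 correlated more with FGF13cko 1 (0.33). Lengths, GC and coordinates (1-based) came from GENCODE M21 (GRCm38, the assembly of mm10), using the shortest principal transcript; start windows came from RefSeq. Limits of a count of 0 (3 reads) cover counting error only.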

Additional observations from a re-analysis of the deposited data

How the results depend on the processing

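The medians of both subunits kept their direction in every fit, and 69 to 77 members had a negative estimate over 18 fits. Counts of calls moved widely. Over all genes 3971 passed with DESeq2, 5064 with the replicate block, 6145 without both replicate 3 libraries and 469 to 4373 without 1 library. Members past the test numbered 2 with edgeR, 19 with DESeq2, 37 with the replicate block, 56 without both replicate 3 libraries, 0 to 10 without 1 library and 0 without a filter on low values. Those of the large subunit numbered 2, 14, 24, 30, 0 to 8 and 0, in the same order. Small subunit members past the test numbered 5 with DESeq2, 13 with the replicate block, 26 without both replicate 3 libraries and 0 to 2 without 1 library. The first 3 of these counts were 4 lower and 1 higher, 12 lower and 1 higher, and 24 lower and 2 higher. Over all tested genes, 14.9% passed in either direction with edgeR, 23.6% with DESeq2 and 30.0% with the replicate block. Without both replicate 3 libraries 37.3% passed, and without CTRL 3 alone 26.4%. Pseudocounts of 0.5 and 8, TMM or total scaling, added -ps copies and leaving out paralogs or pseudogenes kept the count of members at 1. Without 1 library the log2 difference ranged from -0.18 to 0.0071 for Rpl27, -0.31 to 0.27 for Rpl38, -0.69 to 0.016 for Rpl39 and -0.44 to 0.21 for Rps28. The highest of each was without CTRL 3, Rpl38 was also positive without FGF13cko 2 (0.011), and Rpl38 (0.18) and Rps28 (0.084) were positive without both replicate 3 libraries. None of these positive values passed the test. Without 1 library the difference in the ratio of large to small sums ranged from -0.0566 to 7.83e-05 (without CTRL 1), and the Rpl39l share difference from -0.0161 to 0.00347 percentage points (without CTRL 2). The cause was not tested. Of the other comparisons for the 33 named members, 506 kept their direction and side of the threshold, 42 passed it only in the alternative, and 6 lost it. The labels do not say that libraries are separate animals, and 3 per group limit the exact tests to p values of 0.1 or more.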
